A study of Mus musculus with 5 samples.

Results

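The comparison set 1 RNA-seq library of mouse embryos with a knockdown of the histone variant H3.3 against 1 library of control embryos treated with luciferase. Both came from 4-cell embryos made by nuclear transfer: an oocyte without its own nucleus receives that of a donor cell. The pair was chosen by sample label, 2 of the 5 libraries of the series, and the genes were the 13144 of 22026 listed symbols whose mean over the 5 libraries was at least 1 FPKM. FPKM counts the fragments assigned to a gene relative to its transcript length and to the mapped total, so levels are per length. Values in brackets after a pair of levels are the FPKM of the libraries named there. Differences are given as knockdown minus luciferase on log2(FPKM + 1), a scale that understates the difference of genes with low values.

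Every library was labelled with the strain B6D2F1 and the 4-cell stage. The remaining libraries were untreated embryos, knockdown embryos given H3.3 mRNA and knockdown embryos given H3.2 mRNA, and their values stand beside those of the pair. The treatment tag of the last library names H3.3 mRNA while its title names H3.2 mRNA, and the title is followed here. The source names call the embryos SCNT in the libraries with luciferase and with H3.2 mRNA, and NT in the other 3, so the knockdown and the source name cannot be told apart in this pair. The donor cell, the knockdown reagent, the number of embryos pooled and the sequencing depth are not given in the sources used here. With 1 library a side no difference has a replicate check, and higher and lower below describe these libraries and not the conditions.

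H3.3 is the replacement form of histone H3. It is made throughout the cell cycle and enters chromatin independently of replication, through the HIRA complex at genes and regulatory elements, and through ATRX with DAXX at telomeres and other repeats, whereas H3.1 and H3.2 are made in S phase and deposited behind the replication fork. The oocyte stores H3.3, and after fertilization or nuclear transfer the stored protein enters the incoming chromatin, where the transcripts of the donor nucleus give way to those of the embryo.

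The promoters of 4 genes at the ends of the ranking are shown first, as the regulatory sequence next to the largest differences. They are RefSeq windows of the GRCm38.p6 assembly, 250 bases before to 50 bases after the start of transcription, written 5′ to 3′ on the strand of the gene with each CpG in capitals. Krt8 and Slc5a11 were low in the knockdown, and Calml4 and Iqcf1 were high.
Krt8, chr15:102004293-102004592, minus strand: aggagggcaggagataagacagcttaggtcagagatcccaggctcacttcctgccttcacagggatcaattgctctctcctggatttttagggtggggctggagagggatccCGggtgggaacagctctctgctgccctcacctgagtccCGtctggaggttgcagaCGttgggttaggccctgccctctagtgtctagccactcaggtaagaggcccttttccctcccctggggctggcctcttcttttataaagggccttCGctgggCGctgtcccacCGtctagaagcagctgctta
Slc5a11, chr7:123214616-123214915, plus strand: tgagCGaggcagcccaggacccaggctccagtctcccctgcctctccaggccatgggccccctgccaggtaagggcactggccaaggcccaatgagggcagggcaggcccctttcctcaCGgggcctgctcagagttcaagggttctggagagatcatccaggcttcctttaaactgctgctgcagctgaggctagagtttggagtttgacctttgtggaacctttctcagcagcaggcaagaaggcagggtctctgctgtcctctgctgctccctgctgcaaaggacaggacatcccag
Calml4, chr9:62857854-62858153, plus strand: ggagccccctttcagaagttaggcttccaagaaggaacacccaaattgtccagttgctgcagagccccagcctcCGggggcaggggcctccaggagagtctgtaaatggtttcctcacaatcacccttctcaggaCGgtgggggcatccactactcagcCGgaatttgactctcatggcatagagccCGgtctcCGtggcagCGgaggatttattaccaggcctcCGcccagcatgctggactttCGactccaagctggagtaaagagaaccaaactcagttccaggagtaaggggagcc
Iqcf1, chr9:106499717-106500016, plus strand: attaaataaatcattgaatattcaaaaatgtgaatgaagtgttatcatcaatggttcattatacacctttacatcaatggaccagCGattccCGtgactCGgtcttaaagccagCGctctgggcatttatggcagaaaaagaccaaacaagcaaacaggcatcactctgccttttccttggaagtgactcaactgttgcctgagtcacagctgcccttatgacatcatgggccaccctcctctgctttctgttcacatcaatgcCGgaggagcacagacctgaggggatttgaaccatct
The windows of the low genes held 6 and 2 CpG, and those of the high genes 8 and 5, beside a median of 7 over 32851 such windows. The low and the high genes thus overlapped in CpG number in this small sample. Over sets of genes the promoters were not compared, because only 78.7% of the compared genes had a window, too few for such a check.

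Both genes that encode H3.3 were lower in the knockdown. H3f3a stood at 783 FPKM in the untreated library, 3503 FPKM in the luciferase library, 128 FPKM in the knockdown, 95.5 FPKM with H3.3 mRNA and 129 FPKM with H3.2 mRNA. H3f3b stood at 4484 FPKM in the untreated library, 2230.4 FPKM in the luciferase library, 535 FPKM in the knockdown, 371 FPKM with H3.3 mRNA and 292 FPKM with H3.2 mRNA. The knockdown held 3.67% of the luciferase level of H3f3a and 24.0% of that of H3f3b, and 11.6% of their sum. H3f3a made up 61.1% of that sum in the luciferase library, 19.4% in the knockdown and 14.9% in the untreated library, so the luciferase library differed from the others in which of the genes was the larger. The libraries given H3.3 or H3.2 mRNA were as low as the knockdown, with 8.14% and 7.33% of the luciferase sum. Pseudogenes nearly identical to both genes exist, so how reads were divided between them is uncertain.

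Against the luciferase library, the knockdown had 2478 genes at least 4-fold lower, or 18.9% of those compared, and 1280 at least 4-fold higher, or 9.74%. Counting any difference, 6915 genes (52.6%) were below the luciferase level and 5385 (41%) above it. The first pair of shares is the background for counts at 4-fold below, and the second for counts of members below or above the luciferase level. A gene silent elsewhere passes the filter only through the library where it is high, so counts in lists of mostly silent genes are in part set by the filter. The median over all genes was -0.12, and 45.9% of genes lay within 2-fold. A value of 0 in the knockdown was listed for 1608 of the 2478 lower genes, and a value of 0 in the luciferase library for 440 of the 1280 higher genes. Over the 9854 genes above 0 in both libraries the counts were 870 lower and 840 higher. In bulk libraries fewer cells that express a gene and less RNA per cell cannot be told apart. The share of calls in the lower direction was 65.9%, and it was 54.5% after quantile normalization, with 1954 lower and 1630 higher genes, a setting that shifted the median of all genes by 0.12.

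**Figure D1:**
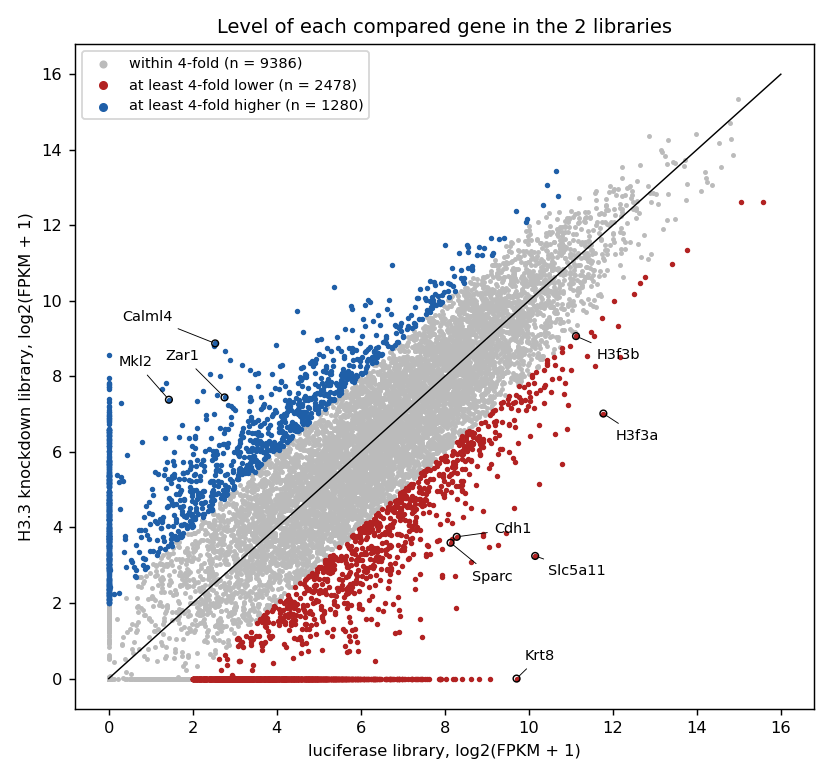
Each point is 1 of the 13144 compared genes, with its level in the luciferase library on the x axis and in the knockdown library on the y axis, both as log2(FPKM + 1), and the line marks equal levels. The 2478 red genes below and the 1280 blue genes above are at least 4-fold apart, and the points on the lower edge are genes listed at 0 in the knockdown, Krt8 among them.

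The luciferase library itself lay far from the other control. Luciferase minus untreated gave 1759 genes at least 4-fold lower (13.4%) and 3090 higher (23.5%). The genes that a result turns on are therefore given with their levels in all 5 libraries. The knockdown listed 2781 of the compared genes at 0 and the luciferase library 1353. The luciferase file, like that of the H3.2 mRNA library, wrote all 22026 values with 2 decimals, whereas the other 3 files did not, so the way the values were written split the files as the source names did. Of the 100 highest genes of each library 64 were shared, and the highest in the luciferase library was the alkaline phosphatase gene Alppl2, at 48698 FPKM.

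The size of the difference varied with the level of a gene and with the length of its transcript. Among genes with a mean of the pair from 5 to 20 FPKM, 36.4% were at least 4-fold lower and 15.1% higher, and among the 723 genes whose mean reached 1000 FPKM these shares were 3.60% and 3.87%. The excess of lower genes thus lay at low levels, and above 100 FPKM the directions were about even. Transcripts under 1000 bases had a median of 0.76, those of 2000 to 3000 bases 0.00 and those of 6000 bases and more -0.87. Over genes whose mean reached 50 FPKM the same medians were 1.11, 0.06 and -0.88. The median length was 3499.5 bases for the lower genes and 2396 bases for the higher genes, beside 3184 bases for all. Medians after this trend was removed are given below for each list whose reading it alters, and whether RNA quality or library preparation differed between the libraries was not tested.

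**Figure D2:**
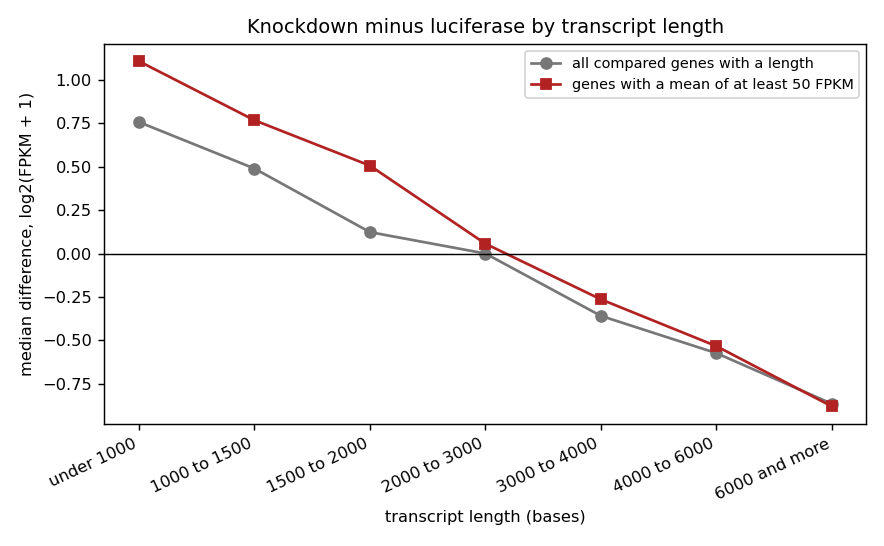
Median knockdown minus luciferase difference in log2(FPKM + 1) on the y axis, by transcript length in bases on the x axis, for all compared genes with a length (grey circles) and for those whose mean reached 50 FPKM (red squares). The medians go from 1.11 and 0.76 for the shortest transcripts to -0.88 and -0.87 for the longest.

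Genes above 0 in both libraries were ranked by their difference. The lowest was Slc5a11, a sodium-coupled inositol transporter, at 288 FPKM in the untreated library, 1136 FPKM in the luciferase library, 8.49 FPKM in the knockdown, 379.7 FPKM with H3.3 mRNA and 55.2 FPKM with H3.2 mRNA, a difference of -6.91. Ccng2, an unconventional cyclin of growth arrest, stood at 307 FPKM in the luciferase library and 2.66 FPKM in the knockdown (untreated 40.9, H3.3 mRNA 26.1, H3.2 mRNA 9.05). Tle4, a Groucho corepressor, stood at 175 FPKM in the luciferase library and 1.13 FPKM in the knockdown (untreated 40.1, H3.3 mRNA 33.5, H3.2 mRNA 26.2). In each of these genes the luciferase library was the highest of the 5 and the knockdown the lowest.
Tmod1, which caps the pointed ends of actin filaments, stood at 0.38 FPKM in the knockdown, 80.2 FPKM in the luciferase library and 0.04 FPKM in the untreated one (H3.3 mRNA 20.5, H3.2 mRNA 16.2). Ipo7, an import receptor, stood at 1.96 FPKM in the knockdown, 168 FPKM in the luciferase library and 9.77 FPKM in the untreated one (H3.3 mRNA 137, H3.2 mRNA 97.7). The class Ib histocompatibility gene H2-Q9 stood at 1.3 FPKM in the knockdown, 112 FPKM in the luciferase library and 1.52 FPKM in the untreated one (H3.3 mRNA 29.4, H3.2 mRNA 2.38). These genes were low in the untreated library too, so the luciferase library stood apart from both. Ppfibp2, a liprin, stood at 611 FPKM in the luciferase library and 10.7 FPKM in the knockdown (untreated 202, H3.3 mRNA 264, H3.2 mRNA 175). The zinc finger gene Zfp599 stood at 122 FPKM in the luciferase library and 2.13 FPKM in the knockdown (untreated 44.1, H3.3 mRNA 19.2, H3.2 mRNA 26.8). Plk5, of the polo kinase family, stood at 533 FPKM in the luciferase library and 10.1 FPKM in the knockdown (untreated 0, H3.3 mRNA 41, H3.2 mRNA 71.7). Ppfibp2, Zfp599 and Plk5 were highest in the luciferase library, and Plk5 was listed at 0 in the untreated one.

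The highest gene of that ranking, the ribosomal protein gene Rps23, separated the libraries by source name. It stood at 0.22 and 0.18 FPKM in the SCNT libraries, luciferase and H3.2 mRNA, and at 119.7, 155 and 76.8 FPKM in the NT libraries, in the order untreated, knockdown and H3.3 mRNA. It was 1 of 3 genes at 20 FPKM or more in each NT library and under 1 FPKM in each SCNT library, and 11 genes had the opposite pattern.
Calml4, a calmodulin-like gene, stood at 4.79 FPKM in the luciferase library and 468 FPKM in the knockdown (untreated 0, H3.3 mRNA 65.3, H3.2 mRNA 79). Iqcf1, which encodes a protein with an IQ motif, stood at 4.69 FPKM in the luciferase library and 448 FPKM in the knockdown (untreated 0, H3.3 mRNA 148, H3.2 mRNA 89.2). Both were low in both controls and intermediate in the add-back libraries. Tcl1b2 and Tcl1b3, oocyte and early embryo genes of the Tcl1 family, stood at 6.34 and 3.74 FPKM in the luciferase library, 345 and 197 FPKM in the knockdown and 203 and 139.7 FPKM in the untreated library, so here the luciferase library was the low one. The chemokine gene Cxcl10 had the same order, with 5.29, 257 and 143 FPKM. Bfsp1, a filament protein of the lens, stood at 5.77 FPKM in the luciferase library and 403 FPKM in the knockdown (untreated 30.2, H3.3 mRNA 412, H3.2 mRNA 252), and both add-back libraries were high too. Wdr16, a gene of motile cilia, stood at 3.28 FPKM in the luciferase library and 163 FPKM in the knockdown (untreated 0, H3.3 mRNA 14, H3.2 mRNA 91.3). Arhgef40, a guanine nucleotide exchange factor, stood at 0.36 FPKM in the luciferase library and 59.9 FPKM in the knockdown (untreated 20.3, H3.3 mRNA 66.8, H3.2 mRNA 30.4). Arhgef40 was as high with H3.3 mRNA as in the knockdown, while Wdr16 was highest in the knockdown.

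Among genes listed at 0 in the knockdown, the highest in the luciferase library was Krt8, the keratin of simple epithelia, at 184 FPKM in the untreated library, 836 FPKM in the luciferase library, 0 FPKM in the knockdown, 22.5 FPKM with H3.3 mRNA and 44.8 FPKM with H3.2 mRNA. Slc16a5, a monocarboxylate transporter, stood at 294 FPKM in the luciferase library and 20.2 FPKM in the untreated library, and Grtp1, a growth hormone regulated gene, at 260.5 and 189 FPKM. The other 5 names of that rule were the small RNA genes Mir147, Mir5121, Snord47, Snord100 and Mir294, at 301 to 543 FPKM in the luciferase library and listed at 0 in the untreated library as well. Without small RNA genes the counts were 2463 lower and 1275 higher.
Among genes listed at 0 in the luciferase library the highest in the knockdown was Defb25, a beta-defensin, at 379 FPKM. Rom1, a photoreceptor disc protein, stood at 209 FPKM and Asphd1 at 126 FPKM, and these 2 were listed at 0 in every other library. B9d1, a protein of the ciliary transition zone, stood at 227 FPKM in the knockdown and 268 FPKM in the untreated library. Rbp7, a retinoid carrier, stood at 200.3 and 94.7 FPKM, so for B9d1 and Rbp7 the luciferase library was the low one of these 3.

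Since the controls differed, genes were also ranked among the 4176 that lay within 2-fold between the controls and were above 0 in both and in the knockdown. Of these, 267 were at least 4-fold lower (6.39%) and 140 higher (3.35%), with a median of -0.15. These genes were selected for close controls, which lowers the share of genes that are far from either one. The T-box factor gene Tbx3 led the lower genes at 72.7 FPKM in the untreated library, 120.3 FPKM in the luciferase library, 1.34 FPKM in the knockdown, 66.9 FPKM with H3.3 mRNA and 3.09 FPKM with H3.2 mRNA. Ptges, a prostaglandin E synthase, stood at 395 FPKM in the luciferase library and 7.43 FPKM in the knockdown (untreated 372, H3.3 mRNA 60.4, H3.2 mRNA 23.5). Gprc5a, an orphan receptor, stood at 303 FPKM in the luciferase library and 5.54 FPKM in the knockdown (untreated 168, H3.3 mRNA 111, H3.2 mRNA 19). In these genes both controls were high, and the H3.2 mRNA library was the nearest to the knockdown.
Bhlhe40, a basic helix-loop-helix repressor, stood at 5.49 FPKM in the knockdown, 244 FPKM in the luciferase library and 159 FPKM in the untreated one (H3.3 mRNA 29.7, H3.2 mRNA 48). Hmga2, an architectural protein of embryonic chromatin, stood at 2.51 FPKM in the knockdown, 119 FPKM in the luciferase library and 66.6 FPKM in the untreated one (H3.3 mRNA 72.2, H3.2 mRNA 6.55). In Bhlhe40 both add-back libraries were below the controls, and Hmga2 was low with H3.2 mRNA but not with H3.3 mRNA. For Myst4, a histone acetyltransferase now called Kat6b, the values were 91.2 FPKM in the luciferase library and 2.46 FPKM in the knockdown (untreated 77.7, H3.3 mRNA 115, H3.2 mRNA 113). Arid3b, an AT-rich DNA-binding factor, stood at 118 FPKM in the luciferase library and 3.47 FPKM in the knockdown (untreated 78.6, H3.3 mRNA 126, H3.2 mRNA 84.2). Adam9, a membrane metalloprotease, stood at 56.8 FPKM in the luciferase library and 1.47 FPKM in the knockdown (untreated 54.7, H3.3 mRNA 46, H3.2 mRNA 50.8). In Myst4, Arid3b and Adam9 the knockdown alone was low, and the other 4 libraries lay within 2-fold of each other. Satb1, an organizer of chromatin loops, stood at 5.23 FPKM in the knockdown, 156 FPKM in the luciferase library and 132 FPKM in the untreated one (H3.3 mRNA 44, H3.2 mRNA 48.8). Tpp2, a cytosolic peptidase, stood at 9.84 FPKM in the knockdown, 244 FPKM in the luciferase library and 177 FPKM in the untreated one (H3.3 mRNA 52.2, H3.2 mRNA 146). Septin 8 (Sept8) and Tmem64 were of the same order, at 1.98 and 1.18 FPKM in the knockdown against 74.5 and 51.8 FPKM in the luciferase library.

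On the higher side, Mkl2, which helps serum response factor to activate genes, stood at 2.24 FPKM in the untreated library, 1.7 FPKM in the luciferase library, 166 FPKM in the knockdown, 29.1 FPKM with H3.3 mRNA and 27.9 FPKM with H3.2 mRNA. Both add-back libraries were above the controls in Mkl2. The kinesin light chain gene Klc3 stood at 11.3 FPKM in the luciferase library and 140.0 FPKM in the knockdown (untreated 10.2, H3.3 mRNA 7.64, H3.2 mRNA 22.3). Adat2, a tRNA deaminase, stood at 38.9 FPKM in the knockdown, 1.84 FPKM in the luciferase library and 1.01 FPKM in the untreated one (H3.3 mRNA 2.29, H3.2 mRNA 12.9). The dynein light chain gene Dynlt1e stood at 72.4 FPKM in the knockdown, 5.74 FPKM in the luciferase library and 9.61 FPKM in the untreated one (H3.3 mRNA 1.44, H3.2 mRNA 9.68). In Klc3, Adat2 and Dynlt1e the knockdown was above all of the other 4 libraries. Efcab4a, a calcium-binding protein, stood at 176 FPKM in the knockdown, 11.3 FPKM in the luciferase library and 12.3 FPKM in the untreated one (H3.3 mRNA 40, H3.2 mRNA 11.3). Kbtbd13 and Klhl17, which encode Kelch proteins, stood at 82.3 and 63.1 FPKM in the knockdown, against luciferase levels of 2.76 and 1.92 FPKM. Heca, Cmtm8 and Arsk, of the same ranking, stood at 64.3, 42.6 and 75 FPKM in the knockdown and 3.86, 2.39 and 6.14 FPKM in the luciferase library.

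**Figure D3:**
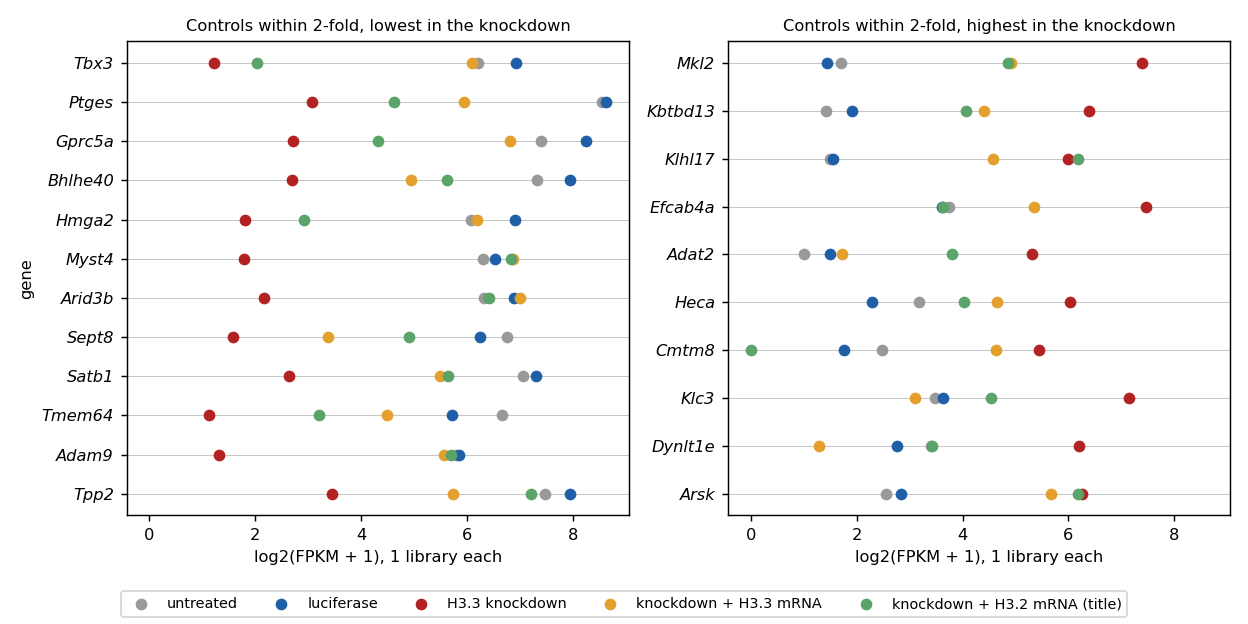
Level of the 12 lowest genes (left) and of 10 of the 12 highest (right) in the ranking with both controls within 2-fold, as log2(FPKM + 1) on the x axis, with 1 point per library and the gene on the y axis. The red knockdown point is the lowest of its row in all 12 genes on the left, while on the right Klhl17 with H3.2 mRNA lies above it.

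Of the 723 abundant genes, whose mean in the pair reached 1000 FPKM, 26 were at least 4-fold lower and 28 higher, the shares given above. After H3f3a, the lowest was Lrpap1, a chaperone of lipoprotein receptors, at 1907 FPKM in the luciferase library and 96.1 FPKM in the knockdown (untreated 993, H3.3 mRNA 939, H3.2 mRNA 368). Spic, an ETS factor, stood at 1955 FPKM in the luciferase library and 151 FPKM in the knockdown (untreated 644, H3.3 mRNA 2136, H3.2 mRNA 80.6). Gldc, the glycine decarboxylase, stood at 1851 FPKM in the luciferase library and 226 FPKM in the knockdown (untreated 812, H3.3 mRNA 2127, H3.2 mRNA 495). Spic and Gldc were at least as high with H3.3 mRNA as in the luciferase library and low with H3.2 mRNA. Cyp2s1, a cytochrome P450, stood at 364 FPKM in the knockdown, 4586 FPKM in the luciferase library and 1303 FPKM in the untreated one (H3.3 mRNA 684, H3.2 mRNA 564). Alppl2 stood at 6256 FPKM in the knockdown, 48698 FPKM in the luciferase library and 8720.5 FPKM in the untreated one (H3.3 mRNA 21523, H3.2 mRNA 9164). Casp6, an executioner caspase, and Aacs, which activates acetoacetate, stood at 311 and 184 FPKM in the knockdown against 3043 and 1829 FPKM in the luciferase library, and at 703 and 718 FPKM in the untreated library. In Cyp2s1, Alppl2, Casp6 and Aacs the untreated level lay between those of the pair.
Guca1a, a calcium sensor of guanylate cyclase, stood at 1821 FPKM in the untreated library, 1611 FPKM in the luciferase library, 11127 FPKM in the knockdown, 2449 FPKM with H3.3 mRNA and 2289 FPKM with H3.2 mRNA, and the knockdown alone was high. Dohh, the last enzyme of hypusine synthesis, stood at 254 FPKM in the luciferase library and 2838 FPKM in the knockdown (untreated 1043, H3.3 mRNA 1177, H3.2 mRNA 444). Mt2, a metallothionein, stood at 1385 FPKM in the luciferase library and 8633 FPKM in the knockdown (untreated 2824, H3.3 mRNA 7028, H3.2 mRNA 662). Pttg1 (securin), Dynll1 (a dynein light chain) and Lsm3 (of the spliceosome) stood at 2467, 2527 and 1873 FPKM in the knockdown, against luciferase levels of 324, 372 and 287 FPKM. In the untreated library these 3 stood at 1871, 2104 and 1887 FPKM, nearer to the knockdown than to the luciferase level. Bex1 stood at 2385, 835 and 5317 FPKM in the untreated, luciferase and knockdown libraries.

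The source name could be held constant only in other pairs. Within the NT libraries, knockdown minus untreated gave 2055 genes at least 4-fold lower (15.6%) and 2211 higher (16.8%), and it shares the knockdown library with the pair. Within the SCNT libraries, the library labelled H3.2 mRNA minus luciferase gave 1293 lower (9.84%) and 1369 higher (10.4%), and it shares the luciferase library with the pair. These within-name comparisons share no library with each other. They had 284 lower genes in common, which is 13.8% of the 2055 and 22.0% of the 1293, and 275 higher genes, which is 12.4% of the 2211 and 20.1% of the 1369. Medians in these pairs are given below for many of the lists and not for all.

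**Figure D4:**
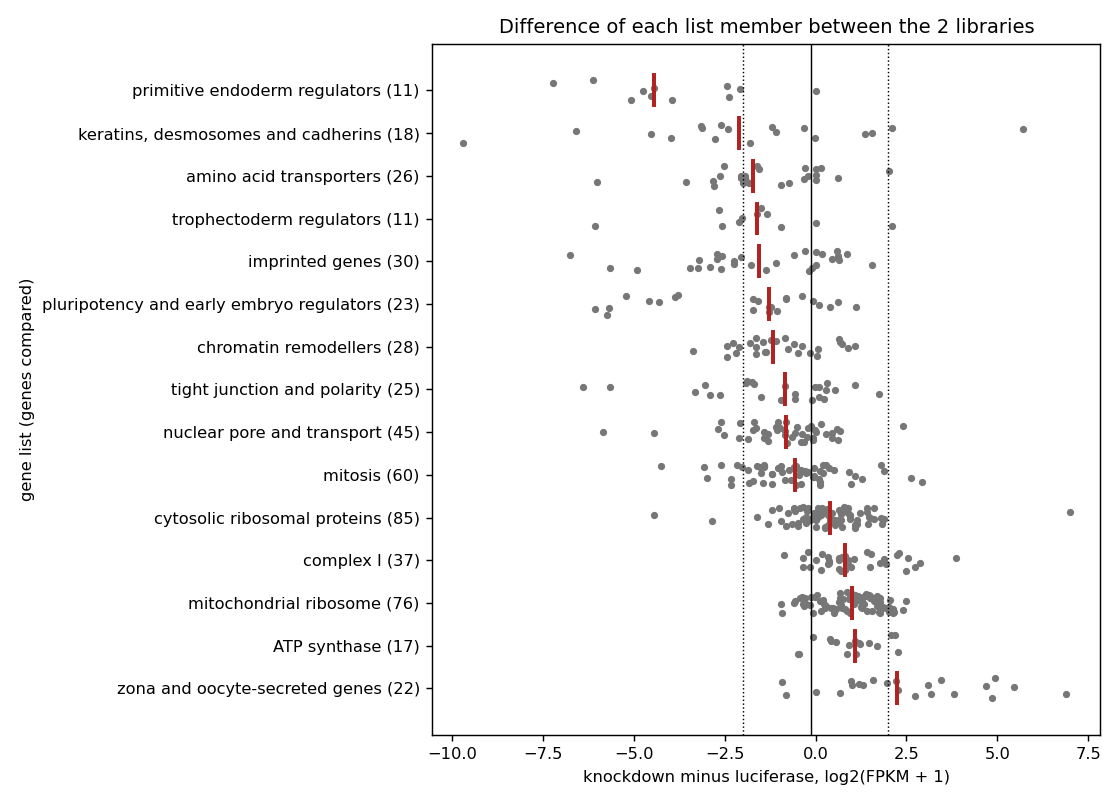
Knockdown minus luciferase difference of each compared member on the x axis, log2(FPKM + 1), for 15 of the 68 gene lists on the y axis, with the number of compared genes in brackets. Red bars are list medians, from -4.45 for primitive endoderm to 2.23 for zona and oocyte-secreted genes, the solid line is the median of all genes (-0.12) and the dotted lines mark 4-fold.

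Regulators and products of the primitive endoderm, the layer that forms the yolk sac, were the lowest list. Of 11 compared members 10 were at least 4-fold lower (90.9%) and 0 higher, and the median was -4.45. Members listed at 0 enter such medians through the pseudocount, and 4 of these 11 were at 0 in the knockdown. Col4a2 and Lrp2 passed the filter only through the luciferase library, so their being called lower was set by the filter. Sparc, a matrix glycoprotein, stood at 719 FPKM in the untreated library, 281 FPKM in the luciferase library, 11.1 FPKM in the knockdown, 53.1 FPKM with H3.3 mRNA and 21.7 FPKM with H3.2 mRNA. Lamb1, a laminin chain, stood at 477 FPKM in the luciferase library and 20.8 FPKM in the knockdown (untreated 206, H3.3 mRNA 49.3, H3.2 mRNA 94.7). Dab2, an endocytic adaptor, stood at 482 FPKM in the luciferase library and 13.2 FPKM in the knockdown (untreated 140.5, H3.3 mRNA 3.51, H3.2 mRNA 67.4). In these 3 genes both controls were above the knockdown and the add-back libraries were below both controls.
Other products were high in the luciferase library and low or at 0 in the untreated one. The collagen gene Col4a2 stood at 0 FPKM in the knockdown, 149 FPKM in the luciferase library and 0 FPKM in the untreated one (H3.3 mRNA 0, H3.2 mRNA 2.16). Lrp2, an endocytic receptor that Dab2 binds, stood at 0 FPKM in the knockdown, 68.8 FPKM in the luciferase library and 0 FPKM in the untreated one (H3.3 mRNA 0, H3.2 mRNA 0.65). The laminin chain gene Lamc1 stood at 0.99 FPKM in the knockdown, 52.4 FPKM in the luciferase library and 2.88 FPKM in the untreated one (H3.3 mRNA 31.3, H3.2 mRNA 39.5). Lamc1 was the one of these with clear levels in the add-back libraries. The transcription factor genes Gata4 and Gata6, chosen after their values were seen, stood at 405 and 223 FPKM in the luciferase library. They stood at 73.5 and 51.4 FPKM in the knockdown and 86.4 and 47 FPKM in the untreated library, so the knockdown was near the untreated level. Both add-back libraries were above these levels, at 331 and 280 FPKM with H3.3 mRNA and 184 and 108 FPKM with H3.2 mRNA. Knockdown minus untreated gave a median of -0.96 for the list and H3.2 mRNA minus luciferase -2.40.

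Trophectoderm regulators, which set up the outer layer of the blastocyst, had 5 of 11 members at least 4-fold lower (45.5%), 1 higher and a median of -1.61, while knockdown minus untreated gave -0.56. Elf3, an epithelial ETS factor, stood at 582 FPKM in the luciferase library and 91.6 FPKM in the knockdown (untreated 22.9, H3.3 mRNA 31.6, H3.2 mRNA 118). Tcfap2c, an AP-2 factor, stood at 479 FPKM in the luciferase library and 80.2 FPKM in the knockdown (untreated 265, H3.3 mRNA 315, H3.2 mRNA 161). Gata3, a driver of the lineage, stood at 27.6 FPKM in the luciferase library and 5.98 FPKM in the knockdown (untreated 3.38, H3.3 mRNA 0, H3.2 mRNA 3.76). The luciferase library was the highest of the 5 in each of these genes, and in Elf3 and Gata3 the untreated level was below that of the knockdown. Klf5 stood at 182 FPKM in the luciferase library and 41 FPKM in the knockdown (untreated 72, H3.3 mRNA 309, H3.2 mRNA 58), with the H3.3 mRNA library the highest. The exception was Ets2, at 12.3 FPKM in the luciferase library and 56.4 FPKM in the knockdown.

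Of 23 compared pluripotency and early embryo regulators 8 were at least 4-fold lower (34.8%) and 0 higher, with a median of -1.29. Besides Tbx3, the orphan receptor gene Esrrb stood at 66.5 FPKM in the luciferase library and 0 FPKM in the knockdown (untreated 1.29, H3.3 mRNA 13.9, H3.2 mRNA 32.5). Tcfcp2l1, a partner of it in the naive network, stood at 60.4 FPKM in the luciferase library and 0.65 FPKM in the knockdown (untreated 4.5, H3.3 mRNA 8.42, H3.2 mRNA 9.84). Nanog stood at 52.1 FPKM in the luciferase library and 0 FPKM in the knockdown (untreated 21.8, H3.3 mRNA 9.59, H3.2 mRNA 0.99). Esrrb and Tcfcp2l1 were high in the luciferase library alone among the 2 controls, whereas Nanog was above 20 FPKM in both controls. Tdgf1 (Cripto), a Nodal co-receptor, stood at 2.99 FPKM in the knockdown, 95.2 FPKM in the luciferase library and 9.86 FPKM in the untreated one (H3.3 mRNA 0, H3.2 mRNA 3.11), and Gdf3, a ligand of the same pathway, at 19 FPKM in the luciferase library and 0 in the untreated library and the knockdown.

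Epithelial adhesion genes were low in the knockdown. Of 18 compared keratins, desmosomal genes and cadherins 9 were at least 4-fold lower (50%) and 2 higher, with a median of -2.11, or -1.19 over those above 0 in both libraries. E-cadherin (Cdh1), which compacts the embryo, stood at 65.8 FPKM in the untreated library, 311 FPKM in the luciferase library, 12.5 FPKM in the knockdown, 86.6 FPKM with H3.3 mRNA and 100.4 FPKM with H3.2 mRNA. Krt18, the partner of Krt8 and chosen after its values were seen, stood at 435 FPKM in the luciferase library and 48.7 FPKM in the knockdown (untreated 290.4, H3.3 mRNA 0, H3.2 mRNA 13.1). The desmosomal genes Dsp and Pkp2 stood at 95 and 61.5 FPKM in the luciferase library, 0 and 2.93 FPKM in the knockdown and 0 and 226 FPKM in the untreated library. The knockdown was thus the lowest of the 5 for Krt8, Cdh1 and Pkp2, and Krt18 was lower in both add-back libraries. In the opposite direction, N-cadherin (Cdh2) stood at 51.3 FPKM in the knockdown and between 0 and 4.16 FPKM in the other 4 libraries.
Of 25 tight junction and polarity genes 6 were at least 4-fold lower (24.0%) and 0 higher, with a median of -0.83. Pard3 and Prkci, which act in the apical Par complex, stood at 96.1 and 42.9 FPKM in the luciferase library, 8.77 and 4.3 FPKM in the knockdown and 66.3 and 42 FPKM in the untreated library. Cingulin (Cgn) stood at 75.1 FPKM in the luciferase library and 9.08 FPKM in the knockdown (untreated 42.6, H3.3 mRNA 79.5, H3.2 mRNA 59.1). In these 3 genes the controls lay within 2-fold of each other and the knockdown was the lowest library. Marveld2 (tricellulin) stood at 82.8 FPKM in the luciferase library, 2.3 FPKM in the untreated library and 0 in the knockdown. Other polarity genes lay on both sides. Scrib stood at 44.1 FPKM in the luciferase library and 11 FPKM in the knockdown (untreated 35.7, H3.3 mRNA 129, H3.2 mRNA 19.1). Pard6a, Pard6b and Crb3 stood at 231, 72.6 and 2857 FPKM in the knockdown, against 68.8, 49.8 and 1347 FPKM in the luciferase library. Prkcz stood at 30.4 against 28.2 FPKM, so the Par genes did not move together.
Water channels and sodium pumps, which fill the blastocoel, had a median of 0.18 over 10 members, with 2 lower and 1 higher, and one of -0.77 in knockdown minus untreated. Aqp3 stood at 341 FPKM in the luciferase library and 31.1 FPKM in the knockdown (untreated 247, H3.3 mRNA 59.4, H3.2 mRNA 57). Aqp11 stood at 139 FPKM in the luciferase library and 749.9 FPKM in the knockdown (untreated 5.13, H3.3 mRNA 129, H3.2 mRNA 105). Aqp3 was lowest and Aqp11 highest in the knockdown among the 5 libraries.

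**Figure D5:**
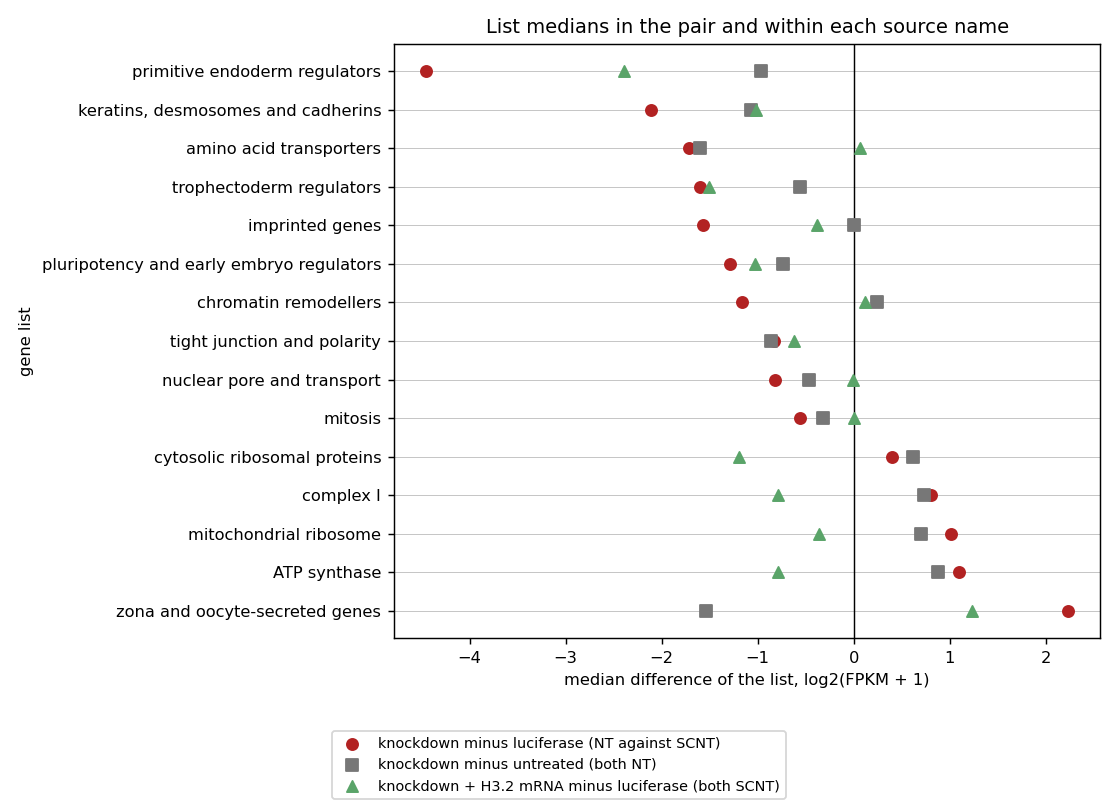
Median difference of the same 15 lists on the x axis, log2(FPKM + 1), for knockdown minus luciferase (red circles), knockdown minus untreated within the source name NT (grey squares) and H3.2 mRNA minus luciferase within the source name SCNT (green triangles). The grey squares share the knockdown library with the red circles and the green triangles share the luciferase library. For the zona, mitochondrial and amino acid transporter lists, among those shown, the squares and triangles lie on opposite sides of 0.

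Signalling genes were compared by their roles. Of 31 genes of the BMP and TGF-beta pathway 12 were at least 4-fold lower (38.7%) and 3 higher, with a median of -1.28. Among the receptors, the type I genes Acvr1 and Tgfbr1 and the type II gene Acvr2b stood at 28.5, 16.8 and 27.5 FPKM in the luciferase library and were listed at 0 in the knockdown. In the untreated library they stood at 2.03, 36.5 and 69.6 FPKM, and with H3.2 mRNA at 61.2, 38.3 and 48.9 FPKM. Among the targets, Id3, an inhibitor of basic helix-loop-helix factors, stood at 978 FPKM in the untreated library, 1576 FPKM in the luciferase library, 87.8 FPKM in the knockdown, 227 FPKM with H3.3 mRNA and 29.6 FPKM with H3.2 mRNA. Id3 was high in both controls and the H3.2 mRNA library was the lowest. The ligand gene Gdf9, which oocytes secrete and which was chosen after its values were seen, was higher in the knockdown, at 550.2 against 81.2 FPKM, with 1332 FPKM in the untreated library. H3.2 mRNA minus luciferase gave the list a median of 0.50, and with a filter at 50 FPKM the knockdown minus luciferase median was 0.06.
Of 22 Hippo pathway genes 6 were at least 4-fold lower (27.3%) and 0 higher, with a median of -0.80. The kinase genes Stk3, Stk4 and Lats2 stood at 26.6, 189 and 129 FPKM in the luciferase library, 5.56, 30.7 and 30.5 FPKM in the knockdown and 67.8, 16.7 and 0 FPKM in the untreated library. Of the kinases only Stk3 was below both controls. Tead1, a DNA-binding partner of the coactivator YAP, stood at 50.5 FPKM in the luciferase library and 4.26 FPKM in the knockdown (untreated 7.85, H3.3 mRNA 28.4, H3.2 mRNA 32.2). Ctgf, a target of both, stood at 52 FPKM in the luciferase library and 5.85 FPKM in the knockdown (untreated 2.46, H3.3 mRNA 0, H3.2 mRNA 5.3). Amot, a junctional regulator of YAP, stood at 12.1 FPKM in the luciferase library, 53.9 FPKM in the untreated library and 0 in the knockdown.
The FGF and MAPK list of 33 had 6 members lower (18.2%) and 1 higher and a median of -0.09. The receptor gene Fgfr3 stood at 123 FPKM in the luciferase library and 9.53 FPKM in the knockdown (untreated 86.1, H3.3 mRNA 68.9, H3.2 mRNA 135). The target Etv5 stood at 101 FPKM in the luciferase library and 13.2 FPKM in the knockdown (untreated 47, H3.3 mRNA 33.5, H3.2 mRNA 19). Both were lowest in the knockdown. Of 29 Wnt pathway genes 5 were lower (17.2%) and 2 higher, with a median of -0.76. The co-receptor gene Lrp6 stood at 30.1 FPKM in the luciferase library and 6.1 FPKM in the knockdown (untreated 4.09, H3.3 mRNA 31.1, H3.2 mRNA 42.6), and the ligand gene Wnt7b at 119 FPKM in the knockdown and 0 in both controls. Sfrp1, a secreted inhibitor, stood at 11.5 FPKM in the luciferase library, 97.5 FPKM in the untreated library and 0 in the knockdown. The 17 AP-1 and immediate early genes had 3 lower, 1 higher and a median of 0.11, with Ier2 at 21.3 FPKM in the luciferase library and 77.2 FPKM in the knockdown (untreated 204, H3.3 mRNA 49.1, H3.2 mRNA 169).

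Chromatin genes were examined by the mark they act on. The 26 chaperones and assembly factors of H3 had 2 members lower, 2 higher and a median of -0.27. Atrx, which places H3.3 at repeats, stood at 41.9 FPKM in the luciferase library and 2.76 FPKM in the knockdown (untreated 2.44, H3.3 mRNA 43.8, H3.2 mRNA 26.3), so it was as low in the untreated library as in the knockdown. Supt16h, a subunit of the histone chaperone FACT, stood at 38.2 FPKM in the luciferase library and 7.54 FPKM in the knockdown (untreated 4.07, H3.3 mRNA 137, H3.2 mRNA 37.6), with the same order. Asf1a, which carries newly made H3 and H4, was higher in the knockdown and stood at 14.3 FPKM in the luciferase library and 67.3 FPKM in the knockdown (untreated 60.5, H3.3 mRNA 29.1, H3.2 mRNA 65.8). Supt6h, a chaperone that travels with RNA polymerase II, stood at 71.6 FPKM in the knockdown, 193 FPKM in the luciferase library and 102 FPKM in the untreated one (H3.3 mRNA 352, H3.2 mRNA 224).
Among other histone variants, macroH2A (H2afy) stood at 129 FPKM in the luciferase library and 0 in the untreated library and the knockdown, with 50 and 29.3 FPKM with H3.3 and H3.2 mRNA. The linker variant H1f0 stood at 49.2 FPKM in the luciferase library and 185 FPKM in the knockdown (untreated 130.2, H3.3 mRNA 111, H3.2 mRNA 112). The damage-responsive variant H2afx stood at 385 FPKM in the luciferase library and 770.0 FPKM in the knockdown (untreated 182, H3.3 mRNA 669.5, H3.2 mRNA 277). The oocyte linker histone H1foo stood at 351 FPKM in the knockdown, 74.8 FPKM in the luciferase library and 1925 FPKM in the untreated one (H3.3 mRNA 426, H3.2 mRNA 179.6), highest in the untreated library and lowest in the luciferase library. Replication-dependent histone transcripts lack poly(A) tails. Of the 66 listed, 17 passed the filter, with 4 lower, 4 higher and a median of 0.00.
Chromatin remodellers had 6 of 28 members at least 4-fold lower (21.4%), 0 higher and a median of -1.16, the lowest of the chromatin lists after the H3.3 genes. Their median transcript length was 6234 bases, and with the length trend removed the median was -0.54. Smarca2, a BAF ATPase, stood at 40.3 FPKM in the luciferase library and 2.96 FPKM in the knockdown (untreated 21, H3.3 mRNA 15.4, H3.2 mRNA 50.2). The ATPase gene Ino80 stood at 144 FPKM in the luciferase library and 25.6 FPKM in the knockdown (untreated 161, H3.3 mRNA 141, H3.2 mRNA 205). Ep400, an ATPase that exchanges H2A.Z, stood at 81.5 FPKM in the luciferase library and 16 FPKM in the knockdown (untreated 133, H3.3 mRNA 77, H3.2 mRNA 159.8). In all 3 the knockdown was the lowest library. The BAF subunit genes Smarcd1 and Smarcd2 stood at 62.5 and 1305 FPKM in the luciferase library, 13.7 and 287 FPKM in the knockdown and 5.01 and 334 FPKM in the untreated library. Knockdown minus untreated and H3.2 mRNA minus luciferase gave the list medians of 0.24 and 0.12, both above 0.
The H3K4 and H3K36 list of 22 had 4 members lower (18.2%), 0 higher and a median of -0.75, or -0.11 with the length trend removed. Setd2, the H3K36 trimethylase, stood at 328 FPKM in the luciferase library and 63.4 FPKM in the knockdown (untreated 87, H3.3 mRNA 269, H3.2 mRNA 265). The H3K4 demethylase gene Kdm5b stood at 348 FPKM in the luciferase library and 87 FPKM in the knockdown (untreated 48.7, H3.3 mRNA 389, H3.2 mRNA 350.2). Dpy30, a core subunit of the H3K4 methylases, stood at 1195 FPKM in the luciferase library and 4359.6 FPKM in the knockdown (untreated 1158, H3.3 mRNA 1284, H3.2 mRNA 1213), and the knockdown alone was high. Acetylation genes had 6 of 26 lower (23.1%), 2 higher and a median of -0.69, which was 0.04 with a filter at 50 FPKM. Beside Myst4, the acetyltransferase gene Kat2b stood at 23 FPKM in the luciferase library and 1.04 FPKM in the knockdown (untreated 6.6, H3.3 mRNA 20.6, H3.2 mRNA 23.6). Kat2b was lowest in the knockdown.
The Polycomb list of 30 had 3 lower and 3 higher and a median of -0.26, which was 0.16 with the length trend removed. Ezh1, an H3K27 methylase, stood at 94.2 FPKM in the luciferase library and 9.54 FPKM in the knockdown (untreated 15.3, H3.3 mRNA 107, H3.2 mRNA 127). Cbx8, a reader of that mark, stood at 24.4 FPKM in the luciferase library and 265 FPKM in the knockdown (untreated 0, H3.3 mRNA 56.8, H3.2 mRNA 29.5). Of 19 genes of H3K9 and H4K20 methylation 3 were lower and 1 higher, with a median of -0.39, or 0.05 with the length trend removed. Setd8, the H4K20 monomethylase, stood at 478 FPKM in the luciferase library and 69.7 FPKM in the knockdown (untreated 594, H3.3 mRNA 262, H3.2 mRNA 209.7). Suv39h2, an H3K9 trimethylase, stood at 7.53 FPKM in the luciferase library and 70.9 FPKM in the knockdown (untreated 8.5, H3.3 mRNA 31.3, H3.2 mRNA 20.2). For both genes the controls lay within 2-fold of each other and the knockdown stood outside the range of the other 4 libraries. Of 18 DNA methylation genes 2 were lower and 0 higher, with a median of -0.65. Tet1, which oxidizes methylcytosine, stood at 3.7 FPKM in the knockdown, 35.3 FPKM in the luciferase library and 0 FPKM in the untreated one (H3.3 mRNA 20.5, H3.2 mRNA 45.4). The de novo methylase gene Dnmt3b stood at 25.8 FPKM in the knockdown, 68.6 FPKM in the luciferase library and 1.84 FPKM in the untreated one (H3.3 mRNA 117, H3.2 mRNA 33.9). Both were near 0 in the untreated library.

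Amino acid transporters were low, with 9 of 26 members at least 4-fold lower (34.6%), 1 higher and a median of -1.72. The glutamate transporter gene Slc1a1 stood at 733 FPKM in the luciferase library and 105 FPKM in the knockdown (untreated 339, H3.3 mRNA 298, H3.2 mRNA 192). Slc7a7, a light chain of a cationic amino acid exchanger, stood at 63.5 FPKM in the luciferase library, 5.13 FPKM in the untreated library and 0 in the knockdown, and 9 of the 26 were at 0 there. Most of the other lower members were near the floor. Slc1a3, Slc38a3, Slc43a2, Slc7a1 and Slc7a2 stood at only 3.18 to 7.5 FPKM in the luciferase library. Slc3a2, the most abundant member, was within 2-fold, at 2652 FPKM in the luciferase library and 1596 FPKM in the knockdown. Knockdown minus untreated gave -1.60 for the list and H3.2 mRNA minus luciferase 0.07.
Of 22 glycolysis genes 5 were lower (22.7%) and 1 higher, with a median of -0.47. The glucose transporter genes Slc2a1 and Slc2a3 stood at 342 and 449 FPKM in the luciferase library, 34 and 65 FPKM in the knockdown and 102 and 63.3 FPKM in the untreated library. Hexokinase 2 (Hk2) stood at 0 FPKM in the knockdown, 74.9 FPKM in the luciferase library and 22.4 FPKM in the untreated one (H3.3 mRNA 4.71, H3.2 mRNA 3.4). Aldoc, an aldolase, was the higher member, at 67.4 FPKM in the knockdown and 10.5 FPKM in the luciferase library. The pyruvate dehydrogenase and citrate cycle list of 30 had 4 lower and 1 higher and a median of -0.54. The isocitrate dehydrogenase gene Idh1 stood at 905 FPKM in the luciferase library and 166 FPKM in the knockdown (untreated 594, H3.3 mRNA 452, H3.2 mRNA 232). The knockdown was the lowest library.
Of 33 lipid synthesis genes 6 were lower (18.2%) and 2 higher, with a median of -0.17. The desaturase gene Scd2 stood at 1205 FPKM in the luciferase library and 34.2 FPKM in the knockdown (untreated 211, H3.3 mRNA 142, H3.2 mRNA 209). The fatty acid elongase genes Elovl5 and Elovl6 stood at 72.3 and 850.5 FPKM in the luciferase library, 3.25 and 137 FPKM in the knockdown and 57.3 and 447 FPKM in the untreated library. The controls were within 2-fold of each other for both elongases.

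Genes of ATP synthase and of the mitochondrial ribosome had medians above 0. ATP synthase had 14 of 17 members above the luciferase level and 3 below, with 3 at least 4-fold higher (17.6%), 0 lower and a median of 1.10, or 0.63 with the length trend removed. Its proteolipid gene Atp5g3 stood at 1658 FPKM in the luciferase library and 6993 FPKM in the knockdown (untreated 6129.6, H3.3 mRNA 1524, H3.2 mRNA 1216). The stalk subunit gene Atp5j stood at 403 FPKM in the luciferase library and 1948 FPKM in the knockdown (untreated 984, H3.3 mRNA 903, H3.2 mRNA 362). In Atp5g3 the knockdown was near the untreated level and the other 3 libraries were low. Of 76 mitochondrial ribosomal protein genes 62 were above and 14 below, 8 were at least 4-fold higher (10.5%, near the 9.74% of all genes) and 0 lower, and the median was 1.01, or 0.55 with the trend removed. Mrpl42 stood at 185 FPKM in the luciferase library and 1036 FPKM in the knockdown (untreated 555, H3.3 mRNA 224, H3.2 mRNA 218). Mrps16 stood at 271 FPKM in the luciferase library and 1221 FPKM in the knockdown (untreated 613, H3.3 mRNA 303, H3.2 mRNA 229).
Of 37 complex I genes 32 were above the luciferase level and 5 below, with 7 at least 4-fold higher (18.9%), 0 lower and a median of 0.81, a sign that was lost with the length trend removed (-0.04). Ndufs5 stood at 71.3 FPKM in the luciferase library and 1048 FPKM in the knockdown (untreated 400.4, H3.3 mRNA 429, H3.2 mRNA 53.5). Ndufa4 stood at 376 FPKM in the luciferase library and 2762 FPKM in the knockdown (untreated 1252, H3.3 mRNA 643, H3.2 mRNA 218). Complex IV had 19 of 21 members above, 1 at least 4-fold higher, 2 lower and a median of 0.84, or 0.31 with the trend removed. Cox6b1 stood at 1359.6 FPKM in the luciferase library and 4766 FPKM in the knockdown (untreated 2728, H3.3 mRNA 1722, H3.2 mRNA 1001), while Sco1, a copper chaperone of that complex, was listed at 0 in the knockdown and stood at 16.4 to 22.1 FPKM in the other 4 libraries. Of complexes II and III, 9 of 14 members were above and 1 was at least 4-fold higher, with a median of 0.42, or -0.53 in H3.2 mRNA minus luciferase. Uqcrb stood at 217 FPKM in the luciferase library and 1165 FPKM in the knockdown (untreated 498, H3.3 mRNA 399.9, H3.2 mRNA 136), whereas the long flavoprotein gene Sdha stood at 589.9 FPKM in the luciferase library and 217 FPKM in the knockdown (untreated 819, H3.3 mRNA 585, H3.2 mRNA 549.9). Of 26 mitochondrial import genes 1 was at least 4-fold higher and 0 lower, with a median of 0.34, or -0.63 in H3.2 mRNA minus luciferase, and Timm10 stood at 448 FPKM in the luciferase library and 2738 FPKM in the knockdown (untreated 2191, H3.3 mRNA 804, H3.2 mRNA 378).
Knockdown minus untreated gave medians of 0.73, 0.87, 0.47 and 0.70 for complex I, ATP synthase, complex IV and the mitochondrial ribosome, and H3.2 mRNA minus luciferase -0.79, -0.79, -0.61 and -0.36. The library labelled H3.2 mRNA was on the other side of the luciferase library from the knockdown for all 4 lists, and the cause was not tested.

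Translation genes divided by function. Of 85 cytosolic ribosomal protein genes 56 were above the luciferase level and 28 below, 1 was at least 4-fold higher and 2 lower, and the median of 0.40 became -0.37 with the length trend removed and was -1.19 in H3.2 mRNA minus luciferase. Rpl30 stood at 754 FPKM in the luciferase library and 2801 FPKM in the knockdown (untreated 1979, H3.3 mRNA 1488, H3.2 mRNA 541). Rps27 stood at 202 FPKM in the luciferase library and 711 FPKM in the knockdown (untreated 207, H3.3 mRNA 537, H3.2 mRNA 118). Rpl39l, a retrogene that codes for a variant ribosomal protein, stood at 12.1 FPKM in the knockdown, 286 FPKM in the luciferase library and 12.8 FPKM in the untreated one (H3.3 mRNA 118, H3.2 mRNA 4.95). Ribosomal protein genes have many processed copies that can take reads. Aminoacyl-tRNA synthetases, which charge tRNAs, had 17 of 22 members below, 0 past 4-fold in either direction and a median of -0.67. The glutamyl-prolyl enzyme gene Eprs stood at 545 FPKM in the luciferase library and 169 FPKM in the knockdown (untreated 65.8, H3.3 mRNA 422, H3.2 mRNA 539). The isoleucyl enzyme gene Iars, one of the 5 above, stood at 179 FPKM in the luciferase library and 625 FPKM in the knockdown (untreated 386, H3.3 mRNA 348, H3.2 mRNA 689).
Of 65 translation factor genes 8 were lower (12.3%) and 1 higher, with a median of -0.48. Eif3a, the largest subunit of initiation factor 3, stood at 629 FPKM in the luciferase library and 86.9 FPKM in the knockdown (untreated 148, H3.3 mRNA 604, H3.2 mRNA 579.5). The scaffold gene Eif4g3 stood at 156 FPKM in the luciferase library and 23.5 FPKM in the knockdown (untreated 138, H3.3 mRNA 186, H3.2 mRNA 156). Both were lowest in the knockdown. Ribosome biogenesis genes had 3 of 42 lower, 2 higher and a median of -0.45. The RNA polymerase I subunit gene Polr1a stood at 130.1 FPKM in the luciferase library and 9.52 FPKM in the knockdown (untreated 92.8, H3.3 mRNA 195, H3.2 mRNA 114). The processome gene Utp20 stood at 175 FPKM in the luciferase library and 24 FPKM in the knockdown (untreated 8.12, H3.3 mRNA 195, H3.2 mRNA 269). Nop16 and Rrp9, nucleolar proteins, were the higher members, at 1546 and 1546 FPKM against 334 and 349 FPKM in the luciferase library.

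Of 45 nuclear pore and transport genes 36 were below the luciferase level and 9 above, with 7 at least 4-fold lower (15.6%, under the 18.9% of all genes), 1 higher and a median of -0.82, or -0.41 with the length trend removed. Besides Ipo7, the import receptor gene Ipo9 stood at 122 FPKM in the luciferase library and 19.4 FPKM in the knockdown (untreated 21, H3.3 mRNA 52.3, H3.2 mRNA 77.4), so both importins were low in the untreated library as well. H3.2 mRNA minus luciferase gave these genes a median of -0.01.
The 42 genes named for RNA polymerase II and its general factors had 4 lower, 1 higher and a median of 0.32, or -0.07 in H3.2 mRNA minus luciferase. The lower ones were Polr2a, Gtf2ird1, Gtf2ird2 and Gtf2a1l, the last at only 3.33 FPKM in the luciferase library. The large catalytic subunit gene Polr2a stood at 124 FPKM in the luciferase library and 22 FPKM in the knockdown (untreated 109, H3.3 mRNA 55.4, H3.2 mRNA 103). The small subunit gene Polr2k stood at 78 FPKM in the luciferase library and 410.1 FPKM in the knockdown (untreated 192, H3.3 mRNA 149, H3.2 mRNA 29.9). Of 33 Mediator genes 4 were lower and 2 higher, with a median of 0.56, or -0.27 in H3.2 mRNA minus luciferase. The Mediator kinase gene Cdk8 stood at 529.7 FPKM in the luciferase library and 78 FPKM in the knockdown (untreated 374, H3.3 mRNA 442, H3.2 mRNA 349). Its cyclin gene Ccnc stood at 62.1 FPKM in the luciferase library and 309 FPKM in the knockdown (untreated 12.5, H3.3 mRNA 153, H3.2 mRNA 199), so kinase and cyclin lay on opposite sides. The 46 spliceosome genes had 2 lower and 3 higher and a median of 0.40, or -0.26 in that pair, with Sf3b1, which binds the branch point, at 827 and 181 FPKM and the Sm protein gene Snrpe at 344 and 1477 FPKM in the luciferase and knockdown libraries. The long Polr2a and Sf3b1 transcripts were thus low and the short Polr2k and Snrpe transcripts high, as in the trend with length.

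Shares past 4-fold among cell cycle genes were under those of all genes. Of 46 DNA replication genes 30 were below, 5 were at least 4-fold lower (10.9%), 1 was higher and the median was -0.59. Mcm10, which helps to start replication forks, stood at 638 FPKM in the luciferase library and 66.5 FPKM in the knockdown (untreated 742, H3.3 mRNA 324, H3.2 mRNA 416). Mcm4, a helicase subunit, stood at 341 FPKM in the luciferase library and 84.5 FPKM in the knockdown (untreated 417, H3.3 mRNA 115, H3.2 mRNA 197). The leading strand polymerase subunit gene Pole2 stood at 192 FPKM in the luciferase library and 30 FPKM in the knockdown (untreated 339, H3.3 mRNA 168, H3.2 mRNA 123). For these 3 genes the knockdown was the lowest of the 5 libraries and the untreated library the highest. Of 60 mitosis genes 43 were below, 8 were at least 4-fold lower (13.3%), 2 were higher and the median was -0.56. The cytokinesis genes Kif23 and Prc1 and the phosphatase gene Cdc25a, which starts mitosis, stood at 1305, 1226 and 96.4 FPKM in the luciferase library, 155, 199.6 and 11.3 FPKM in the knockdown and 555, 275 and 45.5 FPKM in the untreated library. The untreated values lay between those of the pair for each of these genes. Wee1, the kinase that holds off mitosis, stood at 52.9 FPKM in the luciferase library and 1.83 FPKM in the knockdown (untreated 1.71, H3.3 mRNA 24.8, H3.2 mRNA 61.4), and securin (Pttg1) was among the higher genes.
Of 22 G1 and S phase cyclins and kinases 2 were lower and 0 higher, and 11 lay on each side. E2f1, an activator of S phase genes, stood at 60.9 FPKM in the luciferase library and 189 FPKM in the knockdown (untreated 17.2, H3.3 mRNA 126, H3.2 mRNA 143). Of the 42 cytoskeleton genes 6 were lower (14.3%) and 1 higher, with a median of 0.00. Tropomyosin 1 (Tpm1) stood at 741 FPKM in the luciferase library and 63.3 FPKM in the knockdown (untreated 1282, H3.3 mRNA 125, H3.2 mRNA 189). Actn4, an actin crosslinker, stood at 2682 FPKM in the luciferase library and 373 FPKM in the knockdown (untreated 1243, H3.3 mRNA 796, H3.2 mRNA 883). Profilin 2 (Pfn2) was the higher member, at 127 FPKM in the knockdown and 3.09 to 14 FPKM in the other 4 libraries.

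Of 34 cytosolic heat shock and chaperonin genes 27 were below the luciferase level, 4 were at least 4-fold lower (11.8%) and 1 higher, and the median was -0.61. Hsp90ab1, a constitutive chaperone, stood at 15635 FPKM in the untreated library, 33959 FPKM in the luciferase library, 6335 FPKM in the knockdown, 15398 FPKM with H3.3 mRNA and 12191 FPKM with H3.2 mRNA. Hspa8, the constitutive member of the Hsp70 class, stood at 13860.0 FPKM in the luciferase library and 2584 FPKM in the knockdown (untreated 5652, H3.3 mRNA 4866, H3.2 mRNA 5306). The knockdown was the lowest of the 5 for both. Cryab, a small heat shock protein of the lens, stood at 238 and 179 FPKM in the luciferase and untreated libraries and 0 in the knockdown and both add-back libraries. Of 30 folding and unfolded protein response genes of the endoplasmic reticulum 6 were lower (20%) and 1 higher, with a median of -0.49. The lumenal chaperone genes Hyou1 and Pdia4 stood at 73.5 and 396 FPKM in the luciferase library, 7.93 and 52.8 FPKM in the knockdown and 80.5 and 119 FPKM in the untreated library. Selk, a selenoprotein of that membrane, was the higher member, at 1035 against 100.3 FPKM.
The 36 genes of translocation and vesicle coats had 7 lower (19.4%), 1 higher and a median of -0.56. The coatomer genes Copa, Copb1 and Copg stood at 139, 86.5 and 784 FPKM in the luciferase library, 23, 15.4 and 155 FPKM in the knockdown and 62.1, 102 and 70.2 FPKM in the untreated library. Copg alone was lower in the untreated library than in the knockdown. Lysosome genes had 4 of 34 lower, 1 higher and a median of 0.26, or -0.17 and -0.15 in knockdown minus untreated and H3.2 mRNA minus luciferase, with prosaposin (Psap) at 3411 FPKM in the luciferase library and 745 FPKM in the knockdown (untreated 1816, H3.3 mRNA 1166, H3.2 mRNA 1755). Of 28 autophagy genes 5 were lower (17.9%) and 1 higher, with a median of -0.52. The initiating kinase gene Ulk1 stood at 941 FPKM in the luciferase library and 211 FPKM in the knockdown (untreated 378, H3.3 mRNA 1039.8, H3.2 mRNA 654). Gabarap, which is attached to the growing membrane, stood at 432 FPKM in the luciferase library and 2396 FPKM in the knockdown (untreated 1786, H3.3 mRNA 1300.5, H3.2 mRNA 421).
The 45 proteasome genes had 1 lower, 3 higher and a median of 0.33, or -0.46 in H3.2 mRNA minus luciferase. The higher ones included Psmb10 and Psme2 of the immunoproteasome. Their levels were 325 and 64.2 FPKM in the knockdown, against 29 and 4.63 FPKM in the luciferase library. The untreated library was the highest for both, with 476 and 204 FPKM. Psmb8 and Psmb9, of the immunoproteasome too, did not rise, with 0 FPKM listed on each side of the pair. Untreated embryos had 1107 FPKM of Psmb8 and 71.85 FPKM of Psmb9. Of 54 ubiquitin conjugation genes 8 were lower (14.8%) and 1 higher, with a median of -0.18. Btrc, which recognizes phosphorylated substrates, stood at 399 FPKM in the luciferase library and 66.4 FPKM in the knockdown (untreated 57.8, H3.3 mRNA 157, H3.2 mRNA 125). The conjugating enzyme gene Ube2o stood at 159 FPKM in the luciferase library and 18.2 FPKM in the knockdown (untreated 175, H3.3 mRNA 381, H3.2 mRNA 174).

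Stress and death genes had members on both sides. Of 26 p53 targets 4 were lower (15.4%) and 1 higher, and 13 lay on each side of the luciferase level. Gadd45a, a growth arrest gene, stood at 175 and 258 FPKM in the luciferase and untreated libraries and 0 in the knockdown, whereas Bax, a pore-forming BCL2 protein, stood at 164 FPKM in the luciferase library and 1076 FPKM in the knockdown (untreated 485, H3.3 mRNA 231, H3.2 mRNA 168). Of 26 BCL2 family and caspase genes 6 were lower (23.1%) and 2 higher, with a median of -0.57, which was 0.35 with a filter at 50 FPKM. Casp2 stood at 0 FPKM in the knockdown, 53.3 FPKM in the luciferase library and 0 FPKM in the untreated one (H3.3 mRNA 19.9, H3.2 mRNA 113). Birc2, an inhibitor of apoptosis, stood at 5.83 FPKM in the knockdown, 58.1 FPKM in the luciferase library and 194 FPKM in the untreated one (H3.3 mRNA 40.2, H3.2 mRNA 48.9). Of 23 integrated stress response genes 1 was lower and 2 higher. The kinase gene Eif2ak1 stood at 153 FPKM in the luciferase library and 38.5 FPKM in the knockdown (untreated 296, H3.3 mRNA 112, H3.2 mRNA 72.3). The transcription factor gene Atf5 stood at 21.6 FPKM in the luciferase library and 153 FPKM in the knockdown (untreated 3.84, H3.3 mRNA 221, H3.2 mRNA 137). Atf5 was high in the knockdown and both add-back libraries and low in both controls. In the oxidative stress list of 35, with 4 lower and 1 higher, catalase (Cat) stood at 344 FPKM in the luciferase library and 18.4 FPKM in the knockdown (untreated 156, H3.3 mRNA 75.7, H3.2 mRNA 45.1) and the mitochondrial peroxiredoxin gene Prdx3 at 482 FPKM in the luciferase library and 75.5 FPKM in the knockdown (untreated 121, H3.3 mRNA 168, H3.2 mRNA 187). Catalase was lowest in the knockdown, and the metallothionein gene Mt2 was the higher member.

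Transcripts that the oocyte stores were higher in the knockdown than in the luciferase library. Zona and oocyte-secreted genes had 12 of 22 members at least 4-fold higher (54.5%), 0 lower and a median of 2.23, while knockdown minus untreated gave -1.54 and H3.2 mRNA minus luciferase 1.24. Zar1, which maternal RNA stores depend on, stood at 639 FPKM in the untreated library, 5.76 FPKM in the luciferase library, 173 FPKM in the knockdown, 64.4 FPKM with H3.3 mRNA and 18.4 FPKM with H3.2 mRNA. Oas1d, an oocyte member of the oligoadenylate synthetase family, stood at 6.55 FPKM in the luciferase library and 106 FPKM in the knockdown (untreated 571, H3.3 mRNA 110.1, H3.2 mRNA 96.4). The luciferase library was the lowest and the untreated library the highest of the 5 for both. The oocyte transcription factor genes Nobox and Figla were listed at 0 in the luciferase library and stood at 29.7 and 27.8 FPKM in the knockdown and 9.47 and 0 FPKM in the untreated library, so here the knockdown was the highest.
The 19 genes of the subcortical maternal complex and the NLRP family had 1 lower and 5 higher (26.3%), with a median of 0.69, or -1.35 in knockdown minus untreated. Zbed3 of that complex stood at 43 FPKM in the luciferase library and 427 FPKM in the knockdown (untreated 4895, H3.3 mRNA 292, H3.2 mRNA 95.3). Of 41 mRNA storage and decay factors 3 were lower and 3 higher, with a median of -0.04. Btg4, which recruits the deadenylase that clears maternal mRNA, stood at 29.2 FPKM in the luciferase library and 271 FPKM in the knockdown (untreated 1389.9, H3.3 mRNA 189, H3.2 mRNA 200.1). Zcchc6, which adds uridine tails to mRNA, stood at 62 FPKM in the luciferase library and 4.78 FPKM in the knockdown (untreated 173, H3.3 mRNA 67.8, H3.2 mRNA 86.7). The oocyte homeobox genes Obox1 and Obox2 stood at 138 and 116 FPKM in the knockdown, 14.6 and 9.52 FPKM in the luciferase library and 351 and 328 FPKM in the untreated library. Their abundant relative Obox6 stood at 4669 FPKM in the luciferase library and 3907 FPKM in the knockdown (untreated 3477, H3.3 mRNA 5437, H3.2 mRNA 2504), a narrower range than theirs.
Of 30 genes of the 2-cell stage and of genome activation 8 were at least 4-fold higher (26.7%) and 1 lower, with a median of 0.28, or -0.02 with the length trend removed. Arg2, an arginase of the 2-cell transcript class, stood at 73.9 FPKM in the luciferase library and 993 FPKM in the knockdown (untreated 332, H3.3 mRNA 225, H3.2 mRNA 918). Ddit4l, a regulator of TOR signalling, stood at 113 FPKM in the luciferase library and 648 FPKM in the knockdown (untreated 386, H3.3 mRNA 169, H3.2 mRNA 261). The deubiquitinase gene Dub2a stood at 39.6 FPKM in the knockdown, 1.95 FPKM in the luciferase library and 0 FPKM in the untreated one (H3.3 mRNA 42.2, H3.2 mRNA 164). The zinc finger gene Zfp352 stood at 15 FPKM in the knockdown, 1.37 FPKM in the luciferase library and 396 FPKM in the untreated one (H3.3 mRNA 137, H3.2 mRNA 118). Arg2 and Dub2a were near or above the knockdown level with H3.2 mRNA, and Zfp352 was highest in the untreated library. Zscan4d, a marker of genome activation, was the lower member, at 6.59 FPKM in the luciferase library and 0.06 FPKM in the knockdown. Dub2a, Zfp352 and Zscan4d belong to families with near-identical copies, so the division of reads among them is uncertain.

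Imprinted genes had 14 of 30 members at least 4-fold lower (46.7%) and 0 higher, with a median of -1.57, but 11 of the 30 were listed at 0 in the knockdown, and over those above 0 in both libraries the median was -0.28. Igf2r, the clearance receptor of Igf2, stood at 281 FPKM in the luciferase library and 29.5 FPKM in the knockdown (untreated 49.7, H3.3 mRNA 264, H3.2 mRNA 159.7). Nnat, Plagl1 and the noncoding RNA gene Meg3 stood at 108, 49.2 and 29.4 FPKM in the luciferase library and were listed at 0 in both the knockdown and the untreated library. With H3.3 mRNA they stood at 9.61, 1.81 and 91 FPKM. For the list, knockdown minus untreated gave a median of 0.00.
On the X chromosome Xist, the RNA that coats the inactive X, stood at 0 FPKM in the untreated library, 12.6 FPKM in the luciferase library, 2.02 FPKM in the knockdown, 3.45 FPKM with H3.3 mRNA and 8.99 FPKM with H3.2 mRNA. Its antisense gene Tsix stood at 6.95 FPKM in the luciferase library and 0 in the knockdown, and since the counting is not stated to use strand, reads of the pair cannot be told apart. The Y-linked genes Uty, Ddx3y, Kdm5d and Eif2s3y were listed at 0 in all 5 libraries. Eif2s3x, the X-linked copy of the last, stood at 749 FPKM in the luciferase library and 230.1 FPKM in the knockdown (untreated 364, H3.3 mRNA 418, H3.2 mRNA 485).
Germline and piRNA genes had 12 of 33 members lower (36.4%), 7 higher (21.2%) and a median of -0.50. Sycp3, of the meiotic chromosome axis, stood at 10.1 FPKM in the luciferase library and 268 FPKM in the knockdown (untreated 414, H3.3 mRNA 314, H3.2 mRNA 109). The germ cell helicase gene Ddx4 stood at 0 FPKM in the knockdown, 19.4 FPKM in the luciferase library and 2.99 FPKM in the untreated one (H3.3 mRNA 4.81, H3.2 mRNA 44.4). Of 25 interferon and antigen presentation genes 4 were lower and 5 higher (20%). Bst2, a membrane tether of viruses, stood at 97.9 FPKM in the luciferase library and 887 FPKM in the knockdown (untreated 271, H3.3 mRNA 224, H3.2 mRNA 85.2), and the peptide transporter gene Tap1 stood at 30.9 and 186 FPKM in the luciferase and untreated libraries and 0 in the knockdown. Of 20 small nucleolar RNA host genes and long noncoding RNAs 4 were lower and 5 higher, and Snhg1 stood at 998 FPKM in the luciferase library and 4627 FPKM in the knockdown (untreated 3659, H3.3 mRNA 1674, H3.2 mRNA 756). Of the families restricted to other tissues, the taste receptor gene Tas2r107 stood at 95.6 FPKM in the knockdown and 0 in both controls.

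Markers of other cells that an embryo sample could hold were at 0 or low, with exceptions. Of 14 cumulus and granulosa markers 3 were above 0 in each library of the pair, with a summed level of 479 FPKM in the luciferase and 1078 FPKM in the knockdown library, nearly all of it Amhr2, at 472 and 1056 FPKM. Amh, Fshr, Cyp19a1, Ptx3, Has2 and Tnfaip6 were listed at 0 in both libraries of the pair. In the untreated library Tnfaip6, Vcan and Cyp19a1 stood at 185, 62 and 4.25 FPKM. Of 10 fibroblast markers 5 were above 0 in the luciferase library and 1 in the knockdown, with summed levels of 62.3 and 16.5 FPKM, and Col1a1, Col3a1 and Thy1 were at 0 in both. Vim and Fn1 stood at 21.8 and 28.8 FPKM in the luciferase library and at a listed 0 and 16.5 FPKM in the knockdown. Of 7 blood markers 4 and 3 were above 0, with sums of 1566 and 1104 FPKM, of which Gata1 made up 1534 and 908 FPKM. The blood markers Cd68 and Hba-a1 were higher in the knockdown, at 148 and 49 FPKM against 18.2 and 1.95 FPKM in the luciferase library. Alas2 was lower, at 0 against 12.2 FPKM, and Ptprc, Lyz2 and Hbb-b1 were at 0 in both. Whether cells of these kinds had a part in the differences was not tested.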

How the data were processed

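Libraries of 5 samples of 4-cell mouse embryos were prepared from total RNA with an Illumina TruSeq kit and read from 1 end for 51 bases, per the labels' protocols. The authors deposited 1 table of FPKM per library, made with TopHat and Cufflinks on mm9 per the submitters' processing notes, with no versions stated there. The depth and the counting error are unknown. From these values the difference was computed as knockdown minus luciferase on log2(FPKM + 1), over genes whose mean in the 5 libraries was at least 1 FPKM, and a gene was called at 4-fold, or 2 on the log2 scale. With 1 library per group no test was run. The named genes and the 68 gene lists were chosen with earlier results of these data known. The naming rule took the 12 highest and 12 lowest genes above 0 in both libraries, the 8 highest listed at 0 in the other library, the 12 highest and lowest with both controls within 2-fold and above 0 in both controls and the knockdown, the 8 highest and lowest with a mean of the pair of at least 1000 FPKM, and in each list up to 6 members with the largest differences. Clones and gene models were left out, some genes of the rule are not reported here, and, besides cell and sex chromosome markers, 4 genes outside it are named as such. Of 1613 list symbols 1600 were in the files, and 13043 of the 13144 compared genes matched a RefSeq symbol. Transcript lengths came from a GENCODE annotation of another build, GRCm38, and the length trend was fitted by lowess with a span of 0.3. Alternatives were other pseudocounts, filters, scalings and folds. Python 3.11.15 with pandas 2.3.3, numpy 2.4.6, statsmodels 0.14.6 and matplotlib 3.10.9 was used.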

Additional observations from a re-analysis of the deposited data

How the results depend on the processing

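The number of genes called moved with the pseudocount, the filter and the fold. Lower genes outnumbered higher ones under each of these settings, but the excess nearly vanished over genes above 0 in both libraries. Against 2478 lower and 1280 higher genes, a pseudocount of 5 FPKM gave 1176 and 819, a filter at 50 FPKM 551 and 454, and genes above 0 in both libraries 870 and 840. A fold of 2 gave 4284 and 2823 and a fold of 8 gave 1378 and 592. Under a pseudocount of 0.1, no filter, a filter at 5 FPKM, 3 scalings and removal of the length trend, both counts stayed within 1.5 times, and so did they without small RNA genes, a setting chosen after seeing the data. Among the 15 lists with a median of at least 1 in size, that of BMP and TGF-beta reversed to 0.056 with a filter at 50 FPKM, those of X-inactivation and blood markers were 0 without a filter, and the other 12 kept their sign. Smaller medians changed sign more often, as with the length trend removed in cytosolic ribosomal proteins (-0.37), complex I (-0.04), Polycomb (0.16) and H3K9 and H4K20 methylation (0.05). The causes were not tested. Counted over all lists, the 15 above among them, 693 recomputed medians moved by under 0.5 on the log2 scale and 52 by more. No replicate could be left out with 1 library per group, and no paired analysis was possible because each group has 1 library. The depth is unknown, so a listed 0 cannot be told from a level below detection.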
